A study of Mus musculus with 8 samples.

Results

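Cystatins and cysteine-rich secretory proteins (CRISPs) are small proteins, many of which epithelia release into the lumen of ducts and glands. The 10 genes described here are Crisp1, Crisp2, Crisp3, Cst3, Cst6, Cst8, Cst9, Cst10, Cst11 and Cst12. They were picked by name, with earlier results of these arrays in view, as secretory genes known mostly from the epididymis, and their differences between the groups are therefore given as a description without a test. All probes carrying one of these names in the array design were taken, which are 11 of the 41174 probes and 10 of the 27962 gene names on the array, with 2 for Cst6 and 1 for each other gene.

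The arrays measured oviduct RNA of adult female CD-1 mice on gestation day 2 (GD2) in 4 control and 4 Gen replicates, 1 array each. The methods call the replicates independent, and state the number of mice behind a replicate only for another assay. The control mice had been injected with corn oil, and the Gen mice with genistein, a plant estrogen from soy, at 50 mg/kg/day in corn oil, on postnatal days (PND) 1–5. All these mice were superovulated with gonadotropins and mated with males when 6–8 weeks old. Their oviducts were taken 48 hr after hCG and cleared of embryos, so both groups carry the hormone treatment and the mating. The comparison asks how neonatal Gen exposure was followed by changes in adult oviduct transcripts around the time of embryo passage.

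Type 2 cystatins inhibit papain-like cysteine proteases such as the cathepsins by plugging the active site. A subgroup first found in the male tract, which includes Cst8, Cst9, Cst11 and Cst12, lacks part of the conserved inhibitory sequence, and its members are studied mainly for roles around sperm. CRISPs carry a CAP domain and a cysteine-rich tail, and the epididymal member coats sperm and takes part in sperm-egg binding. In the female tract, cystatin C (Cst3) is the widely expressed family member, whereas most of the others are regarded as male-tract genes.

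The 3 probes on which the largest group differences rest are shown so that the measured stretch of each transcript can be seen. They are given in lower case, 5′ to 3′ as in the array design, and their positions are on the design's mouse build mm7. The Crisp1 probe lies at chr17:38338660-38341800, where its 60 bases are spread over 3141 bases of the genome. The Cst8 probe lies at chr2:148546309-148546368 and the Cst12 probe at chr2:148534101-148534160.
Crisp1: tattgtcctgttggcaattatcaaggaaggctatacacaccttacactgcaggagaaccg
Cst8: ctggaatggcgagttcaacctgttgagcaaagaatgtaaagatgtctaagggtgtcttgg
Cst12: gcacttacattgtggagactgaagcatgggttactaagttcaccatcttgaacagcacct
Over all 11 member probes, the longest run of bases shared with a probe of any other gene on the array was 13 or 14 bases, and no run of 10 bases was shared between probes of different members. This compares probes with probes and not with whole transcripts.

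Of the 10 genes, 6 stood well above background throughout at least 1 group (Crisp1, Cst3, Cst6, Cst8, Cst11 and Cst12), and 4 of these were so on all 8 arrays (Cst3, Cst6, Cst11 and Cst12). Cst9 and Crisp2 were above background on some Gen arrays only, and Crisp3 and Cst10 on no array. Every Gen array had more probes of any gene well above background (29527–31481) than any control array (25359–28934). Among the 6, the Gen and control arrays did not overlap for Crisp1 and Cst12, both higher in Gen, and for none with Gen lower. Cst8 was as far apart on average but overlapped through 1 array of each group. Among all 28955 probes detected at this level, the groups did not overlap with Gen higher for 6.04% and with Gen lower for 6.47%. The members were chosen on this comparison, so nothing is read from the count.

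**Figure D1:**
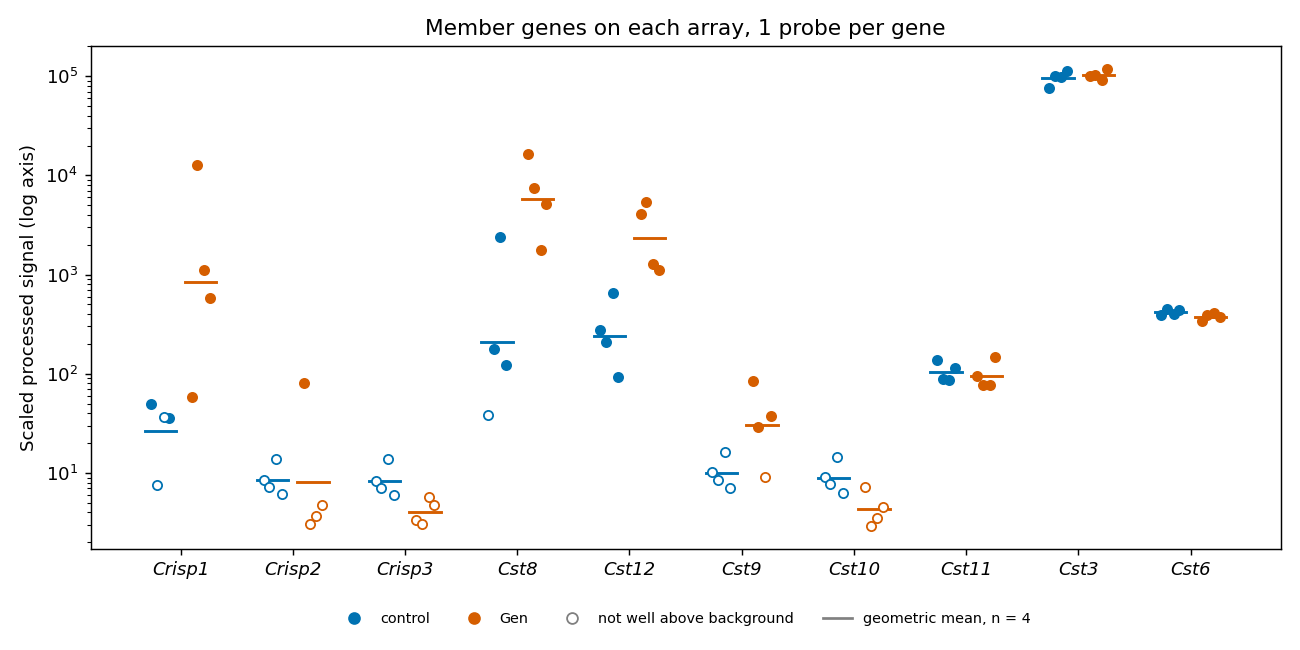
Scaled processed signal of the 10 member genes on each array (log axis, 1 probe per gene), with control arrays in blue and Gen arrays in orange. Open points were not well above background, and lines are geometric means of 4 arrays. Crisp1, Cst8 and Cst12 are higher in Gen, with Crisp1 spread from 58.7 to 12666 within Gen, whereas Cst11, Cst3 and Cst6 differ little between the groups.

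Crisp1 encodes the androgen-dependent epididymal CRISP, which is secreted onto sperm. Its scaled signal was 50.1, 7.63, 37.0 and 36.0 on control arrays 1 to 4, and only arrays 1 and 4 were well above background. On Gen arrays 1 to 4 it was 58.7, 12666, 1106 and 587, all above background. The groups did not overlap, but the lowest Gen array exceeded the highest control array by only 1.17 times, whereas the highest and lowest Gen arrays differed 216-fold. Under quantile normalization and under a floor on low signals the Crisp1 groups overlapped. The mean log2 signal was 4.74 ± 1.22 (SD, n = 4) in control and 9.70 ± 3.19 (SD, n = 4) in Gen, a log2 difference of 4.96 with a standard error of 1.47. Since control arrays 2 and 3 were not above background, the size of this difference is uncertain, and it was 3.35 with normexp background correction and 3.70 with the floor. No other detected probe had a larger SD among the Gen arrays. Crisp1 was thus bright on 1 Gen array, intermediate on 2 and close to the control arrays on 1, and without Gen array 2 the log2 difference was 3.66.

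Crisp2, a CRISP made by testis germ cells and carried in the sperm acrosome and tail, was above background on Gen array 1 alone, at 81.3. On the other 7 arrays its signal was between 3.06 and 13.96. Gen array 1 was also the array with the largest summed signal of a list of sperm and testis germ cell genes, 2274 against 1619–2086 on the other Gen arrays and 1651–1880 in control. Most of that sum was Prm1 (1664 of 2274 on Gen array 1). Prm1, Tnp2 and Gapdhs were highest on Gen array 1. Ldhc was highest on control array 1, Tnp1 on control array 2 and Prm2 on Gen array 2. Akap4, Acrv1 and Odf1 were highest on control arrays, without being above background there. In that list 3 of 9 genes were above background on all 8 arrays and Acrv1 and Odf1 were so on none, and its part in the Crisp2 signal was not tested. Crisp3, known from the salivary gland, was not above background on any array (signals of 3.07–13.7).

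Crisp1 and Crisp3 are close neighbours on chromosome 17, and the stretches just before their starts are nearly identical, so they are shown together. Each is the 250 bases before the annotated start, from RefSeq on build GRCm38.p6, minus strand, 5′ to 3′, at chr17:40319208-40319457 for Crisp1 and chr17:40242289-40242538 for Crisp3, with the bases that differ between them in capitals.
Crisp1: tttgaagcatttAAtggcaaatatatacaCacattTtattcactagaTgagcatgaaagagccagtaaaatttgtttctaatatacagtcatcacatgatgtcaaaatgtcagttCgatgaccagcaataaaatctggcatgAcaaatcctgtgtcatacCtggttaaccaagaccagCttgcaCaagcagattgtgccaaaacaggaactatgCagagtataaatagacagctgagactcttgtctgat
Crisp3: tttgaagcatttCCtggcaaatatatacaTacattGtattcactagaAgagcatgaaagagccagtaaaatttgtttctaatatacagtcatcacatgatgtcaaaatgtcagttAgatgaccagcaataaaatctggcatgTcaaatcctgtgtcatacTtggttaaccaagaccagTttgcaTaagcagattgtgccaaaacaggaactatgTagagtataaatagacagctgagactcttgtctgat
They had the same base at 239 of 250 positions (95.6%) without gaps, and the longest identical run was 67 bases. Both held a TATA box (letters TATAAA, searched on both strands) from 31 to 26 bases before the start. That motif was present in 12.4% of the 32841 upstream stretches of this length in the table, Crisp2 included. The Crisp1 probe was above background on 6 of 8 arrays and the Crisp3 probe on 0 of 8.

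Cst8 encodes the cystatin-related epididymal spermatogenic protein, CRES. Its signal was 38.4, 177, 2379 and 124 on control arrays 1 to 4, with array 1 not above background, and 16442, 7441, 1757 and 5204 on Gen arrays 1 to 4. Control array 3 thus lay above Gen array 3, and the groups overlapped through these 2 arrays only. The mean log2 signal was 7.72 ± 2.51 (SD, n = 4) in control and 12.50 ± 1.34 (SD, n = 4) in Gen. The log2 difference was 4.77 with a standard error of 1.23, or 27.3 times as a ratio of geometric means. Control values themselves spanned 62.0-fold, and 15 detected probes had a larger SD among the control arrays. Without control array 3 the groups no longer overlapped and the log2 difference was 5.94, and without control array 1, which was not above background, it was 3.95.

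Cst12 encodes a related cystatin known mainly from testis and epididymis. Its signal was 274, 208, 653 and 91.9 on control arrays 1 to 4 and 4124, 5348, 1276 and 1109 on Gen arrays 1 to 4, above background on all 8. The groups did not overlap, and the lowest Gen array was 1.70 times the highest control array. The highest control array was again array 3, and the Gen arrays fell into a brighter pair, 1 and 2, and a dimmer pair, 3 and 4. The mean log2 signal was 7.92 ± 1.17 (SD, n = 4) in control and 11.21 ± 1.16 (SD, n = 4) in Gen, a log2 difference of 3.29 with a standard error of 0.71, or 9.77 times.

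Cst9 encodes testatin, a cystatin first described in the fetal testis. On control arrays its signal was 10.1, 8.49, 16.2 and 7.07, none above background, and on Gen arrays 84.0, 29.1, 9.10 and 37.3, above background on arrays 1, 2 and 4. Set against the lowest signals that were above background on the control arrays, the Gen mean gave a bound under 1, so no fold is given. The log2 difference was 1.6 as measured, but 0.29 with normexp background correction and 0.09 with a floor on low signals. Gen array 1 was the brightest, as for Cst8, and Gen array 3 the dimmest.

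Cst8, Cst9, Cst11, Cst12 and Cst3 belong to 1 cluster of cystatin genes on chromosome 2, where the RefSeq order is Cstl1, Cst11, Cstdc1, Cst12, Cst8, Cst13, Cst9, Cstdc2 and Cst3. Cst12 and Cst8, the members of the cluster that were clearly brighter on Gen arrays on average, stood next to each other in this order, followed by Cst13 and Cst9, which were near background. Cst13, which lies between Cst8 and Cst9 and is no member, had signals of 9.498, 9.01, 16.7 and 9.14 on the control arrays, none above background. On the Gen arrays it had 115, 37.4, 13.3 and 20.2, above background on arrays 1 and 2. The groups overlapped for Cst8, Cst13 and Cst9, and did not for Cst12. On 1 side of these 4 genes, Cst11 overlapped between the groups and Cstdc1 and Cstl1 were above background on no array. On the other side, Cstdc2 (13.9–205 in control and 28.4–93.0 in Gen) and Cst3 overlapped. Cst10, also on chromosome 2 but outside the run, was above background on no array.

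**Figure D2:**
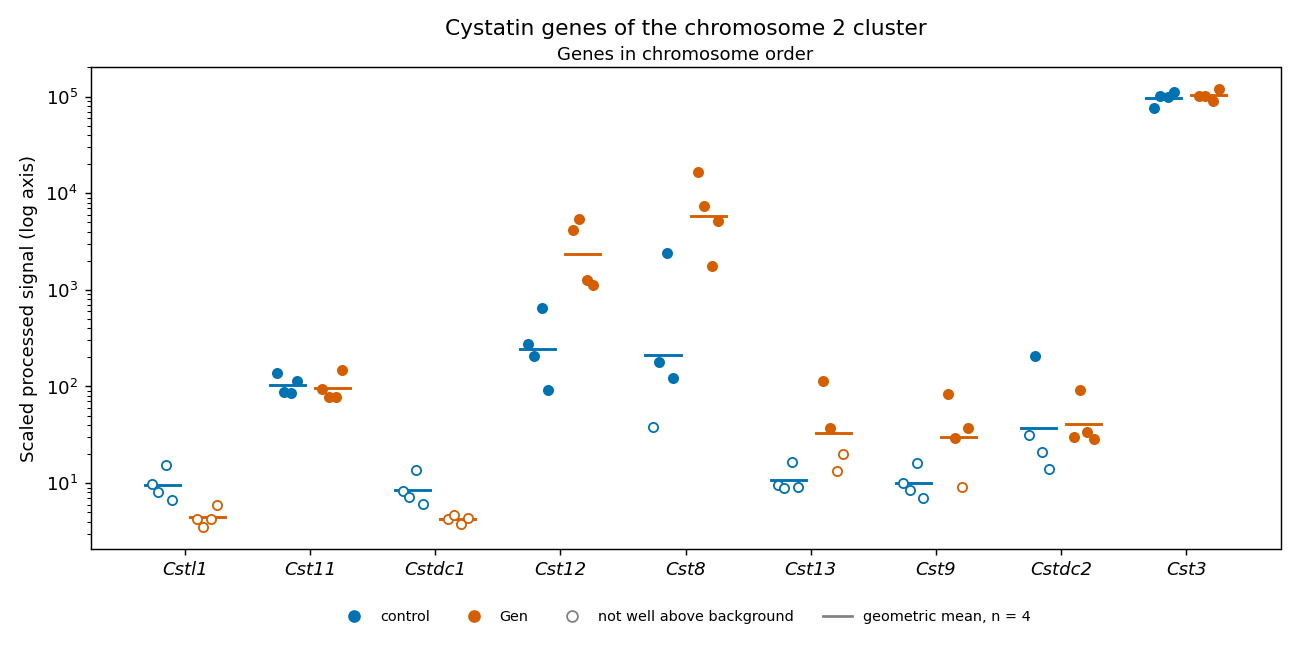
Scaled processed signal on each array (log axis) of the 9 cystatin genes of the chromosome 2 cluster, placed in RefSeq order, with open points for signals not well above background and lines for geometric means of 4 arrays. Cst12 does not overlap between the groups, Cst8 overlaps through control array 3, and Cst13 and Cst9 are above background on 2 and 3 Gen arrays and on no control array. Cst11, Cstdc2 and Cst3 overlap, and Cstl1 and Cstdc1 are above background on no array.

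The stretch before the start of Cst8 was chosen after the array values of this gene and of ovarian genes, described next, were seen. Its bases hold a motif of NR5A1 (SF-1), a nuclear receptor known to bind genes of steroid-producing cells. The stretch is the 250 bases before the annotated start from RefSeq, build GRCm38.p6, plus strand, at chr2:148798589-148798838, with the motif in capitals.
Cst8: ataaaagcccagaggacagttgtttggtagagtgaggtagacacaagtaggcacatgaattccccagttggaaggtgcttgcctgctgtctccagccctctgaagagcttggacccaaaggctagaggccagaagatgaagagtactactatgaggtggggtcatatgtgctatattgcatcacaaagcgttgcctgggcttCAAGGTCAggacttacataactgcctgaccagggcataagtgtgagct
The motif CAAGGTCA, searched on both strands, stood on the strand of the gene from 48 to 41 bases before the start. It was present in 1.33% of the 32841 stretches of this length. Of the 8 members with a sequence in the table only Cst8 held it, and Cst12 did not. Cst6 and Cst11 had no entry. A match is a description of the letters and not a bound site, and its part in the Cst8 signal was not tested.

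Member signals were set beside the summed signal of a list of 9 genes of ovarian steroid-producing and granulosa cells, without a correlation. That sum did not overlap between the groups, as for Cst12 and Crisp1, whereas Cst8, Cst3, Cst11 and Cst6 overlapped. All 9 were above background on at least 1 array, 5 of them on all 8 arrays, and 5 passed the limma test as higher in Gen. Among these 5 were Cyp11a1 (21.6 times as a ratio of geometric means) and Hsd3b1 (18.1 times), enzymes of steroid synthesis. Of all 41173 probes tested, 892 passed as higher, and 2.83% of all detected probes did so. Another steroid enzyme of the list, Cyp17a1, did not pass (0.989 times, limma adjusted p = 0.979). Cyp19a1, one of the 5, was above background on 3 Gen arrays and no control array, so it is not among the detected probes. The summed signal of the list was 6154, 5111, 29481 and 4198 on control arrays 1 to 4 and 141790, 131570, 32791 and 47300 on Gen arrays 1 to 4. Control array 3 was therefore the highest control array for this sum as for Cst8 and Cst12, and lay close to Gen array 3. The control arrays came in the order 3, 1, 2 and 4 for the sum and for Cst12, but 3, 2, 4 and 1 for Cst8. Control array 3 was also the highest control array for the summed adipocyte, macrophage and sperm genes, and not for the remaining marker lists. Much of the sum was Hsd3b1 (18615 of 29481 on control array 3 and 88719 of 141790 on Gen array 1). Among control arrays, Hsd3b1, Star, Cyp11a1 and Lhcgr were highest on array 3. Inha, Amh and Cyp19a1 were highest on array 1, Cyp17a1 on array 2 and Fshr on array 4. Lhcgr, Amh and Cyp19a1 were above background on no control array. The Gen arrays came in the same order for the list and for Cst8 (1, 2, 4 and 3), and arrays 1 and 2 were the bright pair for the list as for Cst12. Crisp1 did not follow the list, since Gen array 1 had the largest ovarian sum and the lowest Crisp1 signal of the Gen arrays. For Cst9 the Gen order was 1, 4, 2 and 3. The part of ovarian RNA in the Cst8, Cst12 and Cst9 signals was not tested. In whole oviduct RNA, more cells of a type and more RNA per cell cannot be told apart.

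**Figure D3:**
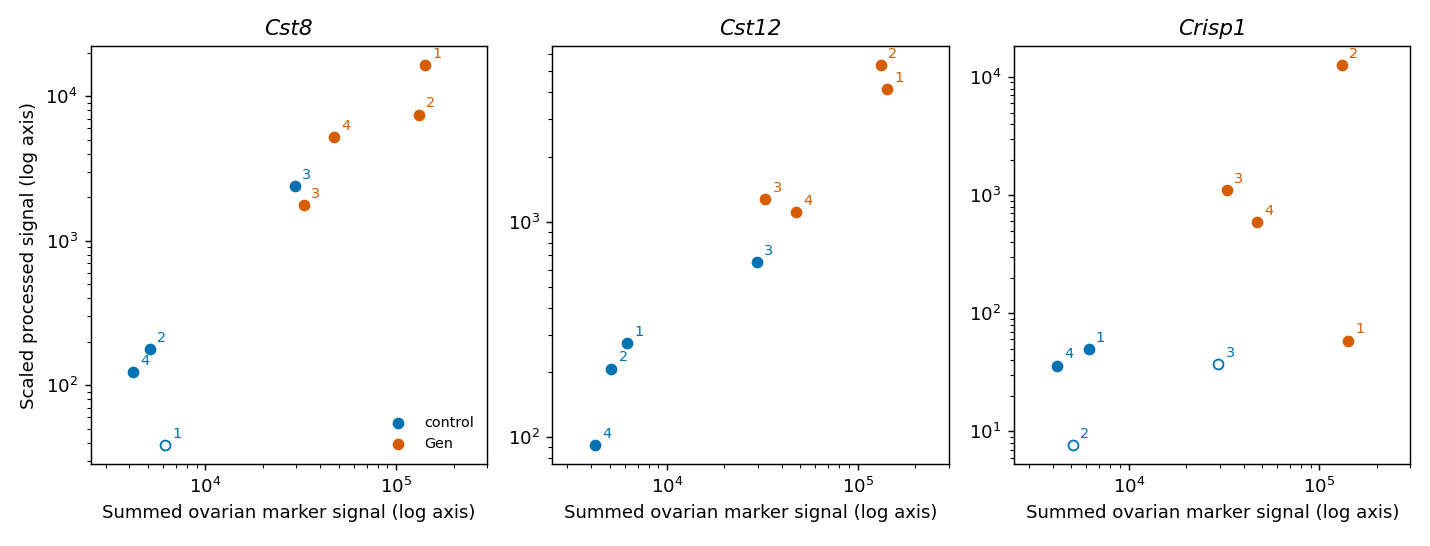
Scaled processed signal of Cst8, Cst12 and Crisp1 (y, log axis) against the summed signal of 9 ovarian steroidogenic and granulosa cell genes (x, log axis) on each array, with the replicate number beside each point and open points for signals not well above background. For Cst8 and Cst12, control array 3 lies beside the dimmer Gen arrays, and for Crisp1 Gen array 1 lies low at the largest ovarian sum of 141790.

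Of the other 9 marker lists, 1 did not overlap between the groups. The summed signal of B and plasma cell genes was 13926–32252 in control and 50828–74952 in Gen, with 7 of 8 genes above background on all 8 arrays and 3 called higher. Its part in the member signals was not tested. The oviduct's own secretory epithelium was present on every array, as all 6 of its markers were above background on all 8, and their summed signal overlapped (930900–1056000 in control and 799530–1156500 in Gen). Markers of ciliated epithelium, smooth muscle, squamous epithelium, granulocytes, macrophages, sperm and adipocytes also overlapped in sum. The granulocyte sum was almost wholly Ltf (228610 of 229400 on control array 1), so it shows little of the other genes in that list. Of these, S100a9 ranged from 336 to 24568 in control, highest on array 3, and from 3637 to 15362 in Gen.

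The remaining detected members, Cst3, Cst11 and Cst6, differed little between the groups, which overlapped. Cst3, cystatin C, is the main secreted inhibitor of lysosomal cathepsins. Its signal was 76290, 100550, 98669 and 111740 on the control arrays and 100290, 102340, 91041 and 118830 on the Gen arrays, a log2 difference of 0.10 with a standard error of 0.15. Cst11, an epididymal relative of Cst8, ranged from 85.7 to 136 in control and from 77.6 to 148 in Gen, with a log2 difference of -0.12 and a standard error of 0.25. Both groups' values interleave for each gene.

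Cst6 encodes cystatin E/M, an inhibitor known from skin and other epithelia. Its bright probe gave 388, 453, 397 and 443 on the control arrays and 339, 393, 406 and 370 on the Gen arrays, a log2 difference of -0.16 with a standard error of 0.11. Under quantile normalization, under normexp background correction and with the mean of both probes, the Cst6 groups no longer overlapped, with Gen lower, and without scaling the log2 difference turned to 0.08. The gene's second probe was not above background on any array (2.93–46.4). Without scaling, the median log2 difference of all detected probes was 0.26 rather than 0.02, so every difference moves upward there. Cst10, known from cartilage, was at 2.93–14.6 on all arrays.

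Signals below background have a direction of their own on these arrays. Of the 7908 probes not above background on any array, 63.4% were called lower in Gen, 0 higher, and their median log2 difference was -1.16. The lower values of Crisp3 (log2 difference -1.03), Cst10 (-1.07) and the second Cst6 probe (-1.94) lie in this range and carry no statement about their transcripts.

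Among the members measured on all 8 arrays, likeness was described by the correlation of log2 signals after each group's mean was taken off (8 arrays, 22257 candidate probes, no test). For Cst12 the 3 most alike genes were Krtap7-1 (r = 0.99), Lhx9 (0.98) and Acsbg1 (0.97). Krtap7-1, a hair keratin-associated protein, had a geometric mean of 57.9 in control and 34.1 in Gen, opposite in direction to Cst12. Acsbg1, a fatty acyl-CoA synthetase, had a geometric mean of 591 in control and 6474 in Gen, and Lhx9, a transcription factor of the early gonad, 63.0 and 140. For Cst3 they were Cybc1, Ddx17 and Dhrs3, for Cst6 H1f10, Serpina11 and Ammecr1l, and for Cst11 Zfyve28, Dyrk1b and Cnih2. Between Cst8 and Cst12 the same measure was 0.64, and between Crisp1 and Cst8 -0.19. With so few arrays and so many candidates, nothing is read from these ranks.

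The surrounding families were examined through 4 lists: other cystatins, other CAP proteins, cysteine proteases and other epididymal secretory proteins. Of 66 listed genes, 58 had a probe and 42 were detected in a whole group. Among these 42, 2 rose and 2 fell at an adjusted p under 0.05 in limma over 41173 probes. Among all 28955 detected probes, 2.83% were called higher and 2.19% lower. The other 38 did not pass. A further 8 genes called lower were not detected in a whole group, and lie among the dim probes described above. The lists were chosen with earlier results in view.

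No other cystatin was called among 9 detected, with a median log2 difference of 0.33 against 0.02 over all detected probes. As examples, Cstb, the intracellular cystatin B, lay at 15379–17309 in control and 14796–18930 in Gen, and Fetub, a fetuin, lay at 2601–3652 and 1364–4198. No CAP protein was called among 8 detected (median log2 difference -0.09). Crispld2, a secreted CAP protein, gave 16847–19883 in control and 14171–18477 in Gen, and Pi16 gave 3216–4691 and 1870–4496.

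Of the 11 cysteine proteases, the targets of cystatins, all were detected (median log2 difference 0.07) and only Ctss, a cathepsin of antigen-presenting cells, was called. Its signal was 25425, 30656, 27267 and 31694 on the control arrays and 39134, 47061, 36213 and 36897 on the Gen arrays, a log2 difference of 0.47 with a standard error of 0.13 (limma adjusted p = 0.0488). The groups did not overlap. With dim probes left out the adjusted p was 0.106, and over 17 alternatives it was 0.0308–0.176, under 0.05 in 2.

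Of 14 detected epididymal genes (median log2 difference 0.17), 1 rose and 2 fell. Adam28, a membrane metalloprotease relative, rose with 920, 1077, 925 and 888 on the control arrays and 1342, 1191, 1527 and 1582 on the Gen arrays, and the log2 difference was 0.56 (standard error 0.13, limma adjusted p = 0.025). Ptgds, the lipocalin-type prostaglandin D synthase, fell from 2674–3752 in control to 1597–2028 in Gen, with a log2 difference of -0.86 (standard error 0.14, limma adjusted p = 0.0236). Neither gene's groups overlapped. Over 17 alternatives the adjusted p of Adam28 was 0.0251–0.128, under 0.05 in 4, and that of Ptgds was 0.0148–0.161, under 0.05 in 9. The Ptgds call was lost without scaling (0.161), with a floor (0.0891), by the methods' t-test (0.063) and with the replicate block (0.0791). It was also lost without control array 1 (0.0508) and without Gen array 1 (0.0633), 2 (0.0675) or 3 (0.0603).

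Cuzd1, a protein with CUB and zona pellucida domains known from uterus and pancreas, fell from 636, 313, 95.1 and 151 in control to signals not well above background on any Gen array (11.3–20.01). For a bound, each Gen array was given its lowest signal that was well above background, or the probe's own value if higher. The control mean was 13.8-fold higher than this (limma adjusted p = 0.0236 for the measured difference). That figure is not a firm minimum, since other settings gave smaller differences. With every low signal raised to 1 common floor, the log2 difference was -1.81 (adjusted p = 0.281), and the adjusted p was 0.00462–0.281 over 17 alternatives, under 0.05 in 11. The call was also lost by the methods' t-test (0.063), with the replicate block (0.0791) and without Gen array 1, 2 or 3. The bound was 4.33-fold after normexp background correction and between 9.88-fold and 18.6-fold without single arrays. The 4 calls rested on particular arrays: without control array 1 there was 1 call, without control array 3 there were 2, and without Gen arrays 1, 2 or 3 there were 0.

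**Figure D4:**
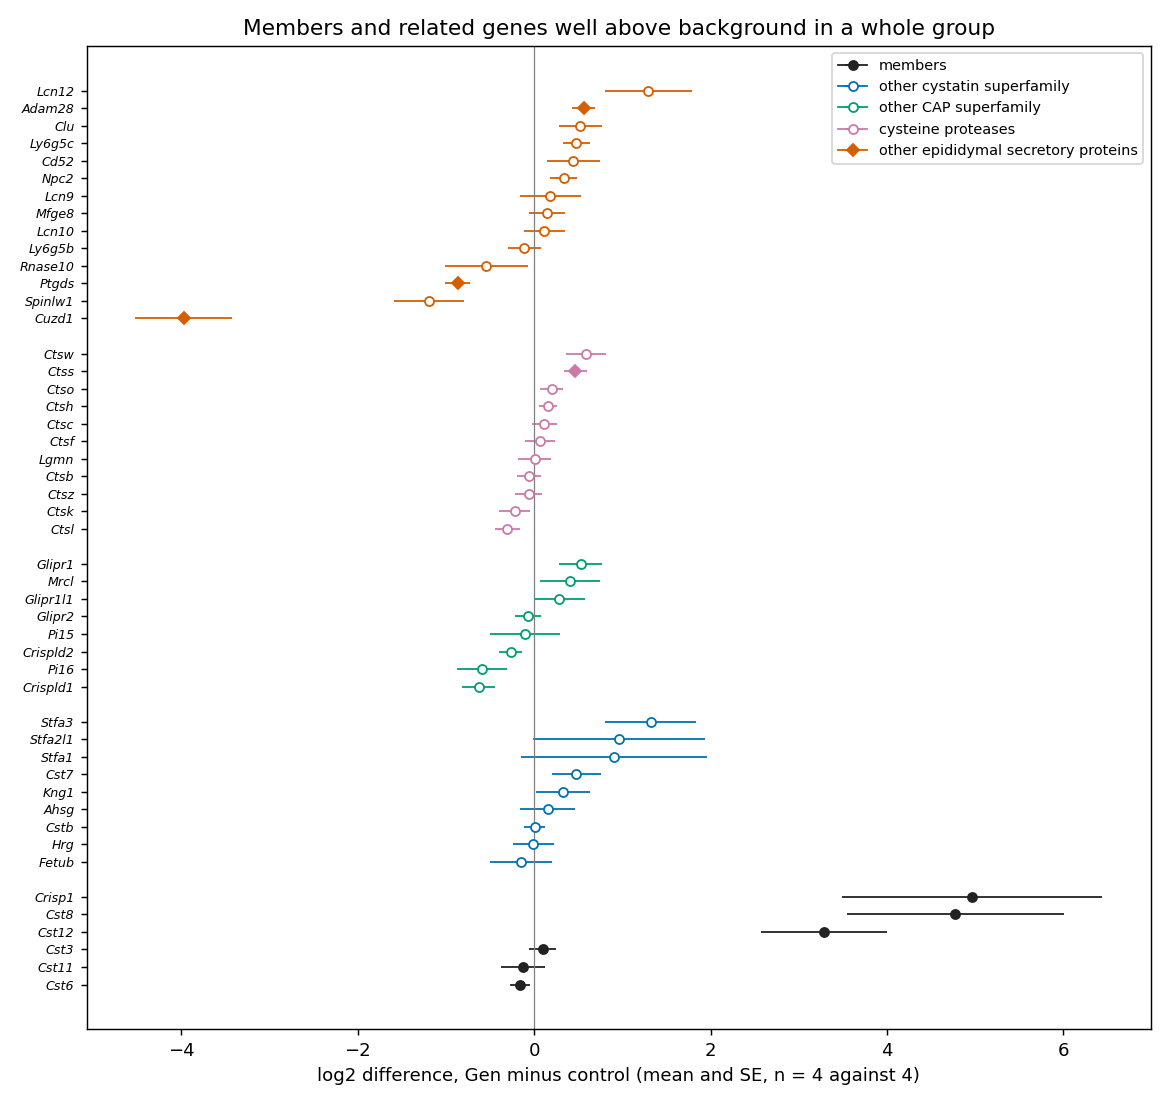
Log2 difference, Gen minus control, with standard error (x; 4 against 4 arrays) for the 6 detected members and 42 detected genes of the related lists (y). Filled diamonds passed an adjusted p under 0.05, open circles did not, and members (filled black circles) were not tested. Crisp1, Cst8 and Cst12 lie at the far right, all called genes but Cuzd1 lie within 1 unit of 0, and the plotted Cuzd1 value is a measured difference whose Gen arrays were not well above background.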

How the data were processed

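Oviduct RNA of CD-1 mice (4 control and 4 Gen replicates) was hybridised to Agilent whole mouse genome arrays in 1 colour. The deposited files come from Agilent Feature Extraction 9.5. Their processed signal, as the authors' scanner software gave it, is a linear intensity, adjusted for background within each array but not scaled across arrays. The series table holds the same values, equal within a relative tolerance of 1e-04 for all 45018 spots of each array. The methods' further steps in other software were not applied.

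In R 4.3.3 with limma 3.58.1, 1639 control spots and outlier spots were left out, spots of a probe were averaged as log2 intensity, and each array was scaled to a common 75th percentile. Before scaling that percentile was 1908–3772, and 25359–31481 probes were well above background. The number of arrays limits the precision. Fits used lmFit and eBayes over 41173 probes with Benjamini-Hochberg adjustment. A gene's brightest probe stands for it. Detected means well above background on all 4 arrays of a group. The script was tested on simulated data. Genes were renamed to RefSeq by accession for 22951 probes and by name or synonym for 9768, and 8455 kept the file name. Positions are those of the array design. No genome was used, so exons are not given.

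Groups and replicate numbers came from the sample labels. The methods name 4 independent biological replicates per group. The control arrays shared 1 slide and the Gen arrays a different one. Slide therefore cannot be told apart from treatment. Replicate numbers did not pair the arrays (same-number correlations of -0.18 to 0.10).

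The members, gene lists and tests were chosen with earlier results of these data known. Named are all members, called genes of the related lists that were detected (at most 4 per list, otherwise the 2 brightest), and for each member above background on all arrays the 3 genes most alike. Cst13, the cluster neighbours and the marker genes were named after their values were seen, and the NR5A1 motif was picked after those of Cst8 were seen. Alternatives were quantile normalization, no scaling, normexp with an offset of 50, a floor on low signals, leaving out dim probes, keeping outlier spots, the mean of a gene's probes, a robust fit with intensity trend, a replicate block, the methods' t-test, and leaving out each array. The granulocyte sum leaves out 1 gene with an outlier spot.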

Additional observations from a re-analysis of the deposited data

How the results depend on the processing

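The differences of Crisp1, Cst8 and Cst12 kept their direction under all 15 alternatives run for each, with log2 differences of 3.35–6.24, 3.95–5.94 and 2.82–3.77. Not all of these could change them. Leaving out single arrays could not reverse the direction for Crisp1 and Cst12, because their groups did not overlap. Leaving out dim probes and averaging a gene's probes returned the main value for these 3 genes, as did the floor for Cst12. Such unchanged values are included in the counts that follow. Over the 10 members, 135 of 146 alternative values stayed within 1 SD of the main value and 11 moved further, and 6 members, none of those 3, took the opposite sign or a value of 0 at least once. The count of members whose groups do not overlap was 2, with 1 under a floor on low signals (Crisp1 lost), 2 under quantile normalization (Crisp1 lost and Cst6 added as lower), 3 without scaling (Cst8 added), 3 with normexp and 3 with the mean of a gene's probes (Cst6 added as lower in both), and 2–4 when single arrays were left out. It was 4 without Gen replicate 3, where Cst8 and Cst9 were added, and 3 without control replicate 3.

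The number of probes called was 6674 and moved to 178 under quantile normalization, 640 without scaling, 251 with normexp, 320 with dim probes left out and 20 with a floor. It was 0 by the methods' t-test after adjustment (6098 at an unadjusted p under 0.01 and 11364 under 0.05) and 1 with the replicate block. It ranged from 1 to 7130 with single arrays left out (97 without control replicate 1, 3 without Gen replicate 1, 2 without Gen replicate 2 and 1 without Gen replicate 3). Related genes called were 12, against 2 under quantile normalization, 1 without scaling, 2 with normexp, 2 with dim probes left out, and 0 with a floor, with the methods' t-test and with the replicate block, where 12, 17 and 17 genes had an unadjusted p under 0.05. Single arrays left out gave 0–12. For the detected ones the count of 4 became 2, 1, 2, 2, 0, 0 and 0 in that order (12, 8 and 9 genes at an unadjusted p under 0.05 for the last 3), and 0–4 with single arrays left out. The cause of these changes was not tested. The arrays share only a number, and 0 arrays correlated best with their own number.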
